A study of Mus musculus with 24 samples.

Results

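Itga3, Itga6, Itgb3, Sdc1 and Cav1 encode integrin subunits, the proteoglycan syndecan-1 and caveolin-1, membrane proteins through which cells meet a laminin-rich matrix. The genes were chosen by name, with earlier results of these data known. Every array feature annotated with one of these 5 symbols was taken, which gave 8 of the 24157 features and 5 of the 8315 gene symbols. Itga3 had 3 features, Cav1 had 2, and Itga6, Itgb3 and Sdc1 had 1 each. All 5 genes passed the filter of a value on at least 2 arrays of every day.

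The cells were HBC-3, a mouse hepatoblast line normally kept on a feeder layer of STON+ cells. Before the experiment the feeder was removed with trypsin and the cells were replated on plastic. The day 0 group holds undifferentiated cells harvested the next morning, and the day 1 to day 7 groups hold HBC-3 cells after that many days of differentiation on Matrigel, a basement membrane extract rich in laminin. Each of the 8 days has 3 arrays, lettered A, B and C, so 24 arrays in all, and every array compares Cy5-labelled sample RNA with Cy3-labelled RNA of undifferentiated HBC-3 cells, with no dye swap. Day 0 is the only group on plastic, so the effect of the surface and that of time in culture cannot be told apart in comparisons with it. A single line was used. No label says whether A, B and C were grown separately, so the p-values rest on a spread between arrays that may be technical only.

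Values are log ratios of sample over reference, read as log2. The base and the numerator are not stated beside the values: the dyes in the labels give the direction, and with another base every fold given here would differ while signs and tests would not. A value of 0 means the level of the reference cells, and since only ratios were given, levels cannot be set between genes and absence of a transcript cannot be read. Between 12328 and 22149 features had a value on an array, column medians lay between -0.03 and 0.03, and the SD of an array ran from 0.332 to 1.06. Some arrays stood apart. At day 0 arrays A and B correlated at 0.755 across features, but A and C at -0.343, and day 0 A correlated at -0.504 with day 3 B. The C arrays of days 4 to 7 correlated at 0.808 to 0.967 with each other and at 0.468 to 0.624 with A and B of the same day. Results that depend on these arrays are given with the arrays left out or with the day 0 signs turned. Only 1 of 10639 units (5660 genes and 4979 unnamed features) differed from the reference at day 0, or 0.0094%.

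Integrins are dimers of an alpha and a beta subunit that bind matrix outside the cell and, through talin and other adaptors, actin inside it. The products of Itga3 and Itga6 bind laminins and can each pair with the product of Itgb1. The product of Itgb3 can pair with the alpha subunit encoded by Itgav, and this dimer binds vitronectin and other ligands with an RGD motif. Syndecan-1 carries heparan sulfate chains that bind matrix proteins and growth factors, and is typical of epithelial cells. Caveolin-1 is the coat protein of caveolae, small pits of the plasma membrane, which it forms together with the cavins.

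The 250 bases before a transcription start are shown for the 3 members with an entry in the RefSeq promoter table (build GRCm38.p6), because these transcripts took different courses: Itga3 and Cav1 were lower on Matrigel, and Sdc1 was higher for the first days. The windows are chr11:95076715-95076964 (minus strand) for Itga3, chr12:8771146-8771395 (plus strand) for Sdc1 and chr6:17306085-17306334 (plus strand) for Cav1, each upstream of the gene's first listed start. Capitals mark matches, on either strand, to the GC box GGGCGG or the TATA box TATAAA.
Itga3: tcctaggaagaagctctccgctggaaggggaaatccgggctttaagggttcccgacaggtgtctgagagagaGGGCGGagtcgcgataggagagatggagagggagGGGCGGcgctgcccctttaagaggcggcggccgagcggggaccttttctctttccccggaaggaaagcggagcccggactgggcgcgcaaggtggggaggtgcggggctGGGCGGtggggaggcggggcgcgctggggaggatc
Sdc1: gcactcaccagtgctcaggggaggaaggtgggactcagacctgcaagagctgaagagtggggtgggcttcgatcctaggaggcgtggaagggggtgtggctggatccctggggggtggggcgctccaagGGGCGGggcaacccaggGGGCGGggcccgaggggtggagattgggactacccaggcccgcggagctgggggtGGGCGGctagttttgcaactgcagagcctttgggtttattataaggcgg
Cav1: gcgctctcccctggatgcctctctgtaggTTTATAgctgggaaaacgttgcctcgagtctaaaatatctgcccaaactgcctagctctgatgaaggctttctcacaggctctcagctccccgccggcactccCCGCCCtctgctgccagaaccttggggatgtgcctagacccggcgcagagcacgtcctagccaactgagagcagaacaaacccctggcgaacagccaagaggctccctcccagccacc
The Itga3 and Sdc1 windows held 3 GC boxes each, and the Cav1 window held 1 GC box and 1 TATA box, both read on the minus strand. Of all 32851 windows of this length, 32.7% held a GC box and 12.4% a TATA box. G and C made up 67.6% of the Itga3 window, 66% of that of Sdc1 and 59.6% of that of Cav1, against a median of 52.4%. Itga3 and Cav1 each have another listed start, not shown, with windows of 50.8% and 60.8% G and C. That other window of Itga3 held 1 GC box and no TATA box, and that of Cav1 held neither. Searches on both strands for the E-box CACGTG, the AP-1 site TGANTCA and the TEAD site GGAATG, which 6.02%, 6.75% and 12.6% of windows held, found no match in these 3 windows. These matches describe letters only.

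On the first day on Matrigel all 5 transcripts differed from day 0, 3 upward and 2 downward. Itgb3 was 13.5-fold higher, Sdc1 4.40-fold higher and Itga6 1.81-fold higher, while Itga3 was 9.54-fold lower and Cav1 3.91-fold lower, the Itgb3 fold resting on 2 day 0 arrays that disagreed. The 5 of 5 stand against 10.9% of all units called at day 1 at an adjusted p below 0.05 (limma with Benjamini-Hochberg adjustment over all units), with 4.99% called higher and 5.92% lower. Since the genes were chosen with earlier results of these data known, the 5 of 5 is no test of matrix receptors as a group. Among the 5660 genes tested, only 2 had a larger rise than Itgb3 and 7 a larger fall than Itga3, while 29 rose more than Sdc1 and 32 fell more than Cav1. In the moderated F-test over all days each of the 5 genes passed, the adjusted p running from 6.75e-05 for Cav1 to 0.0223 for Itga3, against 16.5% of units. After day 1 the courses parted: Itga3 and Cav1 stayed low through day 7, Itgb3 stayed above day 0 but fell back, Sdc1 no longer passed against day 0 after day 4, and Itga6 passed on day 1 alone. The 7 comparisons with day 0 share its 3 arrays.

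**Figure D1:**
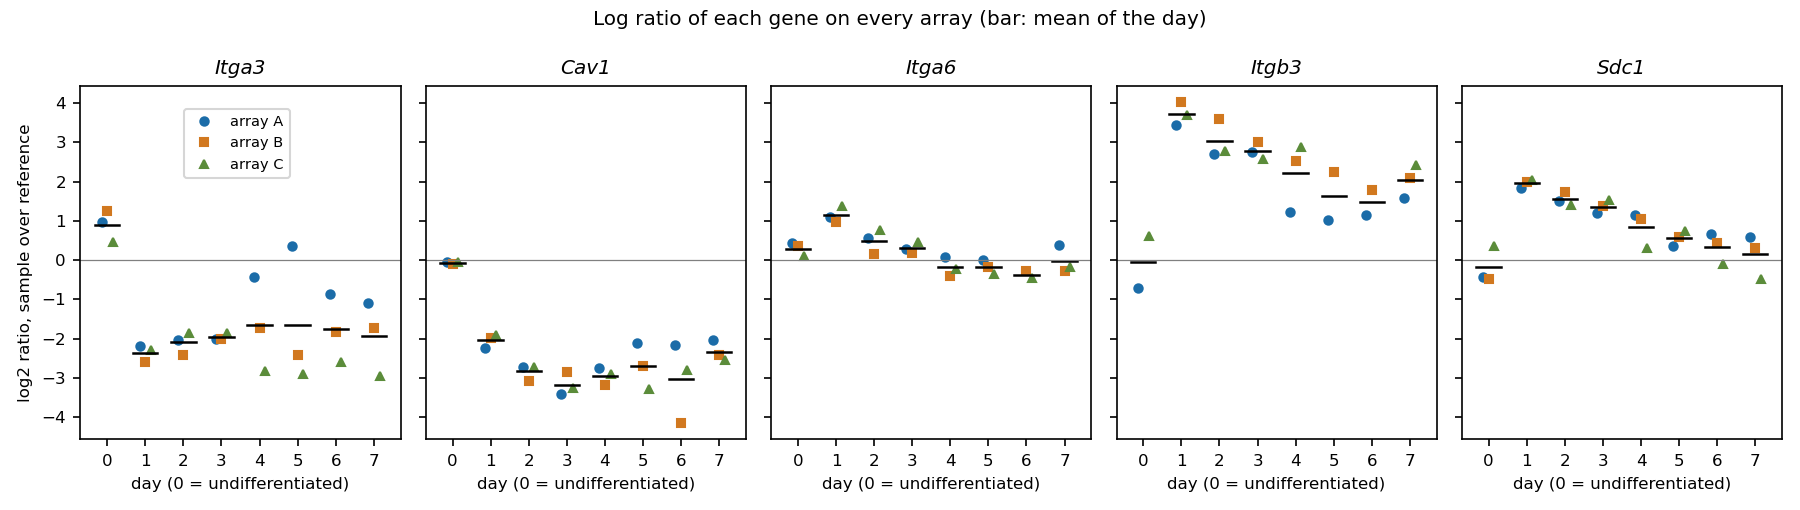
Log2 ratio of sample over undifferentiated reference (y axis) on each array by day (x axis) for the 5 genes; points are arrays A, B and C and the bar is the mean of the day. Itgb3 peaks at a mean of 3.72 on day 1 and Sdc1 at 1.95, while the Itga3 and Cav1 points lie below their day 0 points on every later day, and the Itga3 arrays of days 4 to 7 spread by letter.

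Itga3, the laminin-binding alpha subunit, was above the reference on all 3 day 0 arrays, at 0.96, 1.26 and 0.46 on A, B and C. On day 1 it read -2.19, -2.59 and -2.30, on day 2 -2.03, -2.40 and -1.85, and on day 3 -2.02, -2.01 and -1.85. The arrays of days 1 to 3 lay close together and far from day 0, with no overlap. The mean of day 0 was 0.89 ± 0.40 (SD, n = 3) and that of day 1 -2.36 ± 0.20, a difference of -3.25 ± 0.66 (standard error, adjusted p = 0.00416). On days 2 and 3 the differences from day 0 were -2.99 (adjusted p = 0.00391) and -2.85 (0.00435), where 17.1% and 24.4% of units were called.

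From day 4 the Itga3 arrays separated by letter. They read -0.44, -1.72 and -2.82 on day 4, 0.35, -2.41 and -2.90 on day 5, -0.87, -1.82 and -2.58 on day 6, and -1.09, -1.72 and -2.96 on day 7. Array A was the highest and array C the lowest on each of these days, with means over the 4 days of -0.51, -1.92 and -2.81 for A, B and C, and day 5 A was the single array on Matrigel above 0. The SD rose with it, from 0.0944 on day 3 to 1.75 on day 5. The test was still passed on days 4 to 7, with differences from day 0 of -2.55, -2.55, -2.65 and -2.82 (adjusted p 0.00898, 0.00921, 0.00618 and 0.00396), where 22.2%, 22.9%, 24.8% and 27.6% of units were called. The call was lost at day 4 without day 4 C (-1.97, adjusted p = 0.061) and at day 5 without day 5 C (-1.92, adjusted p = 0.0618) or with only days 0 and 5 in the fit (0.0588). With all day 0 signs turned, the direction stayed but no day passed (-1.47 at day 1, adjusted p = 0.228). With the sign of day 0 C alone turned, days 1 and 7 passed (-2.95 and -2.51, adjusted p 0.00703 and 0.0102).

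The 3 Itga3 features, numbered 11655, 13081 and 18196, agreed in sign on every array and correlated at 0.976 to 0.982 over 19 to 23 arrays. The median gap between the highest and the lowest of them was 0.638 and the widest was 1.05, on day 6 B. As separate units they were called at day 1 with -2.86, -3.36 and -3.76 and at day 7 with -2.45, -3.00 and -2.58, where 10.3% and 27.2% of features were called.

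**Figure D2:**
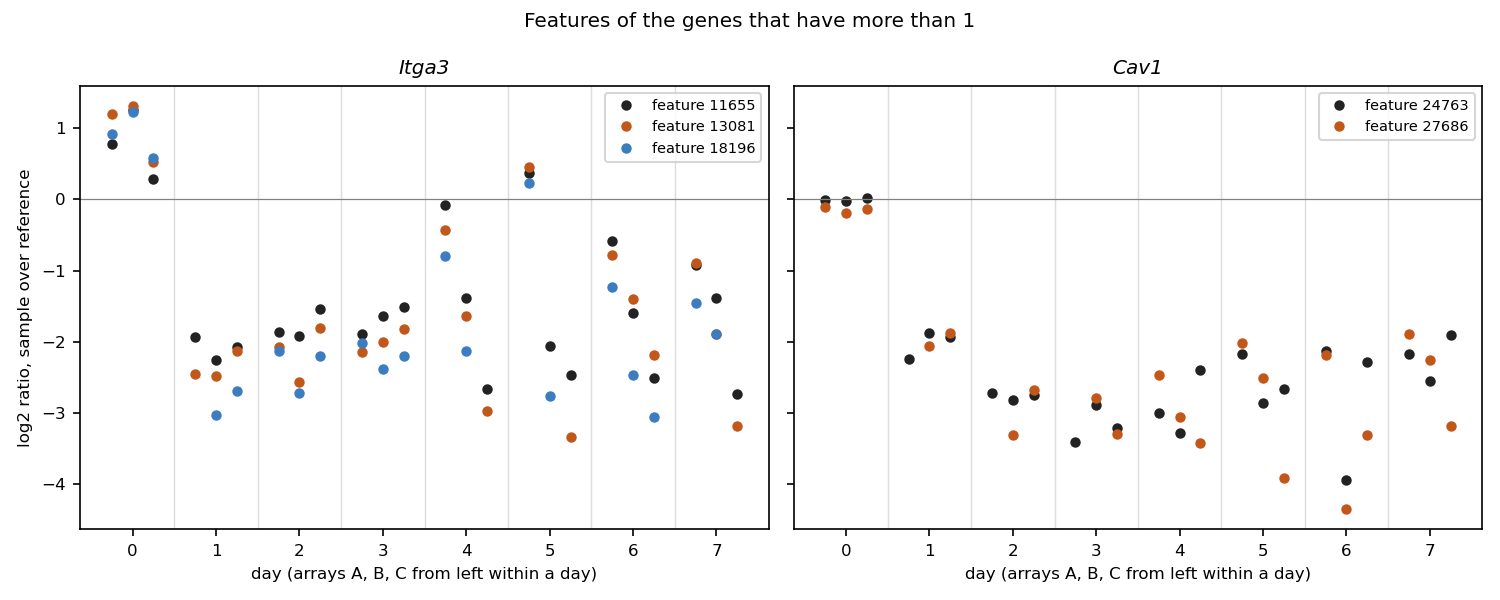
Log2 ratio (y axis) of each feature of Itga3 and Cav1 on the arrays of each day (x axis, A, B and C from left). The 3 Itga3 features follow each other on every array, also where A, B and C part on days 4 to 7, and the 2 Cav1 features part most on C arrays of late days, by up to 1.28 on day 7 C.

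Itga6, the other laminin-binding alpha subunit, had a brief and smaller rise. At day 0 it read 0.43, 0.36 and 0.09 and at day 1 1.10, 0.97 and 1.39, so every day 1 array lay above every day 0 array. The means were 0.29 ± 0.18 and 1.15 ± 0.21 (SD, n = 3), a difference of 0.86 ± 0.22 (adjusted p = 0.0176). That call rested on single arrays: it was lost without day 0 B (0.89, adjusted p = 0.0626), day 1 A (0.88, 0.0513) or day 1 C (0.74, 0.0984).

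By day 2 the Itga6 values of 0.56, 0.15 and 0.75 again overlapped with day 0, as did the 0.29, 0.19 and 0.47 of day 3. On days 4 and 5 they were 0.07, -0.41 and -0.22, then 0.01, -0.17 and -0.34, below every day 0 array. Day 6 had 2 arrays with a value, B at -0.27 and C at -0.47, and day 7 read 0.38, -0.28 and -0.17. None of days 2 to 7 passed against day 0, where the differences ran from 0.20 at day 2 to -0.66 at day 6 (adjusted p = 0.0566, or 0.0464 without day 0 C). The interval of the day 7 difference was -0.78 to 0.15. Turning all day 0 signs raised day 1 to 1.45 and brought day 2, at 0.78, past the test (adjusted p = 0.0269).

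Itgb3, the beta subunit of the vitronectin receptor, made the steepest rise of the 5. Its day 0 arrays disagreed, with A at -0.70, C at 0.63 and no value on B. Day 1 read 3.45, 4.02 and 3.68, day 2 2.69, 3.60 and 2.79, and day 3 2.75, 3.00 and 2.57. All of these lie far above both day 0 arrays. The day 1 mean of 3.72 ± 0.29 (SD, n = 3) exceeded the day 0 mean of -0.04 ± 0.94 (n = 2) by 3.75 ± 0.49 (adjusted p = 0.000197). That size rested on the day 0 arrays: it was 3.09 without day 0 A and 4.42 without day 0 C, both past the test.

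The later Itgb3 values were 1.24, 2.52 and 2.88 on day 4, 1.01 and 2.23 on A and B of day 5, 1.16 and 1.79 on A and B of day 6, and 1.57, 2.09 and 2.42 on day 7. They stayed above day 0 on every array, and A was the lowest array on each of these 4 days, with a mean of 1.24 against 2.16 for B and 2.65 for the 2 C values. Against day 0 the differences of days 2 to 7 were 3.06, 2.81, 2.25, 1.66, 1.51 and 2.07, with adjusted p between 0.000431 at day 2 and 0.0468 at day 6. The calls of days 4 to 7 were lost without day 0 A, which lowered them to 1.58, 1.00, 0.85 and 1.40 (adjusted p 0.0819, 0.296, 0.365 and 0.101). Day 5 was also lost without day 5 B (1.05, 0.251), and day 6 without day 6 A (1.82, 0.0527) or day 6 B (1.19, 0.190). Both days also missed the threshold with all day 0 signs turned (1.59 and 1.44, adjusted p 0.0591 and 0.0741), with arrays scaled to a common spread (1.35 and 1.08, 0.0746 and 0.152) and with only the 2 groups compared in the fit (0.114 and 0.0966). On days 1 to 3 every array that was left out kept the call, the adjusted p reaching 0.0236.

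Sdc1 showed a rise that wore off. Day 0 read -0.43, -0.48 and 0.36, and days 1 to 3 read 1.83, 1.99 and 2.04, then 1.50, 1.74 and 1.42, then 1.19, 1.37 and 1.52. No array of days 1 to 3 came near those of day 0. The day 1 mean was 1.95 ± 0.11 and the day 0 mean -0.18 ± 0.47 (SD, n = 3), a difference of 2.14 ± 0.29 (adjusted p = 0.000181), followed by 1.74 and 1.54 on days 2 and 3 (adjusted p 0.000425 and 0.00088).

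On day 4 Sdc1 read 1.14, 1.06 and 0.31, on day 5 0.35, 0.58 and 0.74, on day 6 0.66, 0.43 and -0.11 and on day 7 0.60, 0.31 and -0.47. From day 4 on the arrays overlapped with day 0, and the C array was the lowest on days 4, 6 and 7. Day 4 was the last day to pass, at 1.02 (adjusted p = 0.0159), and that call was lost without day 0 A, day 0 B, day 4 A or day 4 B (0.90, 0.87, 0.87 and 0.91, adjusted p 0.0757, 0.0867, 0.064 and 0.0546), with all day 0 signs turned (0.65, 0.141) and with only days 0 and 4 in the fit (0.0889). Days 5, 6 and 7 were 0.74, 0.51 and 0.33 above day 0 (adjusted p 0.0701, 0.202 and 0.412), the interval at day 7 being -0.27 to 0.93. With the late C arrays dropped these became 0.65, 0.73 and 0.64 and passed (adjusted p 0.0469, 0.0255 and 0.0439), and day 5 also passed without day 0 C (1.01, adjusted p = 0.0208). Days 5 and 6 passed with array weights (0.90 and 0.77) and with the sign of day 0 C turned (0.98 and 0.75).

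Cav1 had the tightest day 0 values of the 5, at -0.06, -0.11 and -0.06, and was far lower on every array of Matrigel. Day 1 read -2.24, -1.97 and -1.91, day 2 -2.72, -3.06 and -2.71, and day 3 -3.41, -2.84 and -3.25. Days 4 to 7 read -2.73, -3.17 and -2.91, then -2.10, -2.69 and -3.29, then -2.16, -4.14 and -2.80, then -2.03, -2.41 and -2.55. The highest value on Matrigel, -1.91 on day 1 C, lay far below the lowest day 0 array, and the lowest value was on day 6 B.

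The Cav1 mean went from -0.08 ± 0.03 on day 0 to -2.04 ± 0.18 on day 1 (SD, n = 3), a fall by 1.97 ± 0.36 on the log2 scale (adjusted p = 0.00181). It was lowest on day 3, by 3.09 below day 0 or 8.53-fold (adjusted p = 8.09e-06), and was 2.25 below on day 7 (adjusted p = 0.000151). All 7 days passed, and passed again with any 1 array left out, with all day 0 signs turned (-2.12 at day 1 and -2.40 at day 7) and with the late C arrays dropped (-2.14 at day 7). Its features, 24763 and 27686, correlated at 0.890 over 21 arrays, differed in sign on day 0 C only, near 0, and were both called at day 1, with -2.01 and -1.83.

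**Figure D3:**
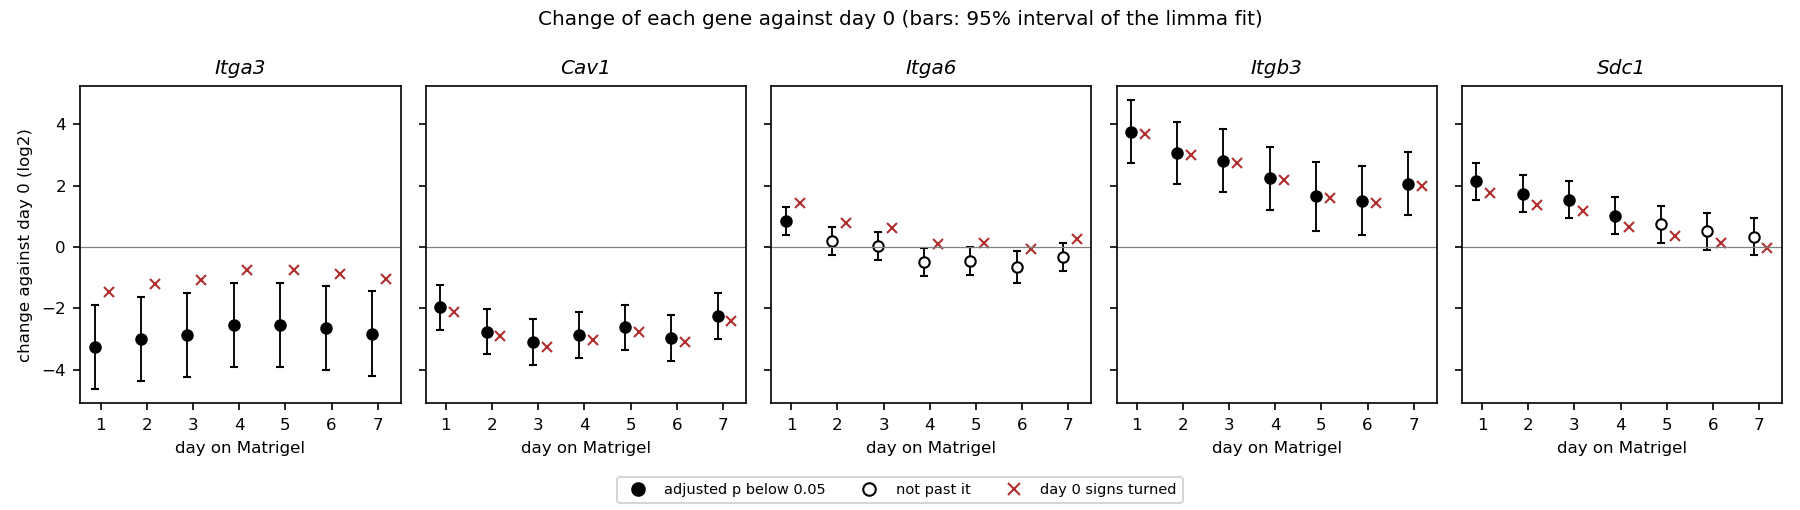
Change against day 0 on the log2 scale (y axis) by day on Matrigel (x axis) with the 95% interval of the limma fit; filled points passed an adjusted p of 0.05, and red crosses give the change after turning the signs of day 0. Itga3, Itgb3 and Cav1 are filled on all 7 days, Sdc1 on 4 and Itga6 on 1, and turning the signs moves Itga3 most.

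Comparisons among the days on Matrigel use no day 0 array. Between days 1 to 3 and days 5 to 7, Sdc1 fell by 1.28 ± 0.17 (adjusted p = 0.000287), Itgb3 fell by 1.46 ± 0.27 (0.00553) and Itga6 fell by 0.84 ± 0.13 (0.00144). These are 3 of 5 against 7.74% of units, of which 4.23% were called lower and 3.51% higher, and only 7 genes had a larger fall than Itgb3 and 12 than Sdc1. The 3 of 5, too, is a share of genes chosen with earlier results known. Leaving out any 1 array, or the late C arrays, ended none of the 3 calls. Arrays of the same letter deviated together within days 1 to 3 (r 0.193 to 0.413) and within days 4 to 7 (0.161 to 0.932). The arrays of a span are therefore not independent, and these standard errors and p-values may be too small. Leaving out 1 array cannot show this. Of 9 tested fibroblast markers 4 were called in the same comparison, the collagen genes Col5a1, Col5a2 and Col6a2 lower and Dcn higher. The collagen genes Col1a2, Col3a1 and Col6a1 did not pass, and the values are given beside the markers. Itga3 and Cav1 did not pass, with differences of 0.36 (interval -0.43 to 1.15, adjusted p = 0.563) and -0.0045 (interval -0.43 to 0.42, adjusted p = 0.992).

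The comparison of single days ran the same way. From day 1 to day 7, Itga6 fell by 1.17, Itgb3 fell by 1.69 and Sdc1 fell by 1.81 (adjusted p 0.00673, 0.0431 and 0.00181), where 2.92% of units were called. The Itgb3 call was lost when any of the 6 arrays was left out (adjusted p 0.0662 to 0.182), and the other 2 kept theirs. Relative to day 1, Itga6 was also lower on days 4, 5 and 6 (-1.34, -1.32 and -1.52), and Itgb3 and Sdc1 on days 5 and 6 (-2.09 and -2.25 for Itgb3, -1.40 and -1.63 for Sdc1), where 1.28%, 1.5% and 3.16% of units were called. On days 2 and 3, where the shares were 0.602% and 1.02%, none of the 5 genes differed from day 1 past the threshold.

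Ordered by level, Itga3 ran from day 0 down through days 5, 4, 6, 7, 3 and 2 to day 1. Itga6 ran from day 1 through days 2, 3, 0, 7, 5 and 4 to day 6, and Itgb3 from day 1 through days 2, 3, 4, 7, 5 and 6 to day 0. Sdc1 fell in the order of the days, from day 1 to day 7, with day 0 the lowest, and Cav1 ran from day 0 through days 1, 7, 5, 2, 4 and 6 to day 3. Of the 29 steps between neighbours on Matrigel, limma called 0, and 1 had an unadjusted p below 0.05, that of Itga6 from day 1 to day 2. In those pairs of days other than with day 1, 0% or 0.0094% of all units were called. Against a neighbouring day 0, Itga3, Itgb3 and Cav1 differed, while Itga6 and Sdc1 did not pass.

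Set against the Cy3 channel itself, where a dye effect is not removed, none of the 5 genes differed on day 0, the adjusted p running from 0.582 for Itga3 to 0.987 for Itgb3. Itga3, Itgb3 and Cav1 differed from it on each of days 1 to 7, Sdc1 on days 1 to 5 and Itga6 on days 1 and 2. The shares of all units called on days 1 to 7 were 16.2%, 25.8%, 32.4%, 32.2%, 32.6%, 36.4% and 35.1%. Itga3, whose day 0 arrays lay above the reference, was 5.13-fold below it on day 1 and 3.79-fold below on day 7.

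Across arrays the 5 genes did not all run together. Itga3 and Itgb3 ran opposite to each other (Pearson r = -0.88 over 21 arrays), Itga3 and Cav1 together (0.74, 24 arrays), Itgb3 and Sdc1 together (0.74, 21 arrays), and Itga6 most with Sdc1 (0.61, 23 arrays). Itga3 and Itga6, whose products both bind laminin, had an r of 0.06 over 23 arrays. These values describe arrays that share a reference RNA and a step between day 0 and Matrigel.

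The genes whose values were most like each member across arrays, among those with at least 20 arrays in common, are given as a description. For Itga3 they were Epha2, an ephrin receptor, Aif1l and Zyx, the focal adhesion protein zyxin, all at an r of 0.93, then Tnk2 (0.91) and Mthfd1 (0.90). Itgb3 was closest to Il33 (0.94), which encodes a cytokine, Adam12 (0.91), a membrane metalloprotease, Jak2 (0.90), AU020206 and Smim3 (both 0.89). Those for Sdc1 were Arhgef19 (0.89), Lmcd1 (0.88), Smim3 (0.85), Fam168a (0.84) and Col27a1 (0.82), and those for Cav1 were Cemip (0.91), which acts in hyaluronan breakdown, Skp2, Cobll1 and Ddx21 (all 0.90) and Pcsk6 (0.89). The neighbours of Itga6 were looser, with Tagln2 and Slc20a1 at 0.84, Gnpnat1 at 0.81, Ier3ip1 at 0.77 and Papss2 at 0.76.

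Of 27 integrin subunit genes in mouse, as listed for this comparison, 11 were on the array and 7 could be tested. At day 1 Itga6, Itgb3 and Itgb5 were called higher and Itga3 lower, and at day 7 Itgb3 and Itgb5 were higher and Itga3 lower, so the only subunit called beyond the chosen 3 was Itgb5. Itgb5, which like Itgb3 pairs with the product of Itgav, rose by 2.26 ± 0.42 at day 1 and 2.07 ± 0.42 at day 7 (adjusted p 0.00221 and 0.00135) and kept both calls with any 1 array left out, but not with all day 0 signs turned (0.35 and 0.15). Itgb1, a beta partner of Itga3 and Itga6, was at 0.21 ± 0.49 and -0.53 ± 0.49 and did not pass (adjusted p 0.857 and 0.432). Itga5, an alpha subunit of the fibronectin receptor, was at -0.54 and -0.42, and Itga4 at 0.01 and -0.14, also not past the threshold. The list median was 0.21 at day 1 and -0.31 at day 7, beside 0.03 and -0.01 over all units. Of all units, 4.99% were called higher and 5.92% lower at day 1, and 14.6% and 13% at day 7. The chosen 3 were picked with earlier results known, so their calls are no test of the list.

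Of 18 tested syndecans, glypicans and other membrane matrix receptors, 4 rose at day 1 and 0 fell, while at day 7 none rose and 1 fell. Over all units, 4.99% were called higher and 5.92% lower at day 1, and 14.6% and 13% at day 7. Those called at day 1 were Gpc1 (2.41), a glypican anchored by lipid, Sdc1 (2.14), Cd9 (2.04), a tetraspanin that associates with integrins, and Sdc3 (1.36). Bcam, a laminin-binding member of the immunoglobulin family, fell by 0.82 at day 7. The call of Sdc3 was lost with any 1 of the 6 arrays left out, that of Cd9 with any but day 0 C, and that of Bcam without day 0 A, day 0 B or day 7 B, whereas Gpc1 kept its call. Counts at an unadjusted p below 0.05 were 6 at day 1 and 3 at day 7, and the list medians were 0.13 and 0.27. With the late C arrays dropped, 6 genes of the list passed as higher at day 7. With all day 0 signs turned 2 rose and 1 fell at day 1 and none fell at day 7, Gpc1 at day 1 being 2.25 (adjusted p = 0.0121) and Cd9 0.59 (0.642).

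Of 4 tested genes for caveolins, cavins and their partners, 2 fell on both days and none rose. Over all units, 5.92% were called lower at day 1 and 13% at day 7. Cavin2, a cavin of the caveolar coat, fell by 3.20 ± 0.42 at day 1 (adjusted p = 0.000112) and by 1.50 ± 0.42 at day 7 (0.0114), beside Cav1. The day 7 call of Cavin2 was lost without day 0 A, day 0 B or day 7 B, and with all day 0 signs turned the value was 0.20. With the sign of day 0 C alone turned the value was -1.57 (adjusted p = 0.00632). Cavin1 was at -0.54 and -0.45 and did not pass. The list medians were -1.28 at day 1 and -0.98 at day 7.

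Of 11 tested genes on the actin side of focal adhesions, 7 fell at day 1 and 8 at day 7, where 1, Cnn3, rose by 0.70. Over all units, 5.92% were called lower at day 1 and 13% at day 7, with 14.6% higher at day 7. The counts of genes that fell became 3 and 5, with none higher at day 7, when all day 0 signs were turned. Zyx fell by 3.41 and 4.38, Actn1, which encodes the actin crosslinker alpha-actinin, by 2.38 and 3.22, Lpp by 1.47 and 1.51, and Vcl, the gene of vinculin, by 1.41 at day 1. Flna, the gene of filamin A, fell by 2.03 at day 7. The medians were -1.23 and -1.34. The count at day 1 fell to 1 without day 0 A, day 0 B or day 1 C and to 2 without day 1 A or day 1 B, with Zyx the gene that kept its call whichever array was left out. With all day 0 signs turned Zyx was at -1.95 at day 1, not past the test (adjusted p = 0.121), and at -2.92 at day 7 (0.00991), Actn1 at -1.02 and -1.87 passed on neither day (0.498 and 0.102), and Vcl passed on both (-1.59 and -1.64, adjusted p 0.0442 and 0.0214). At day 7 it fell to 5 without day 0 B, and the call of Cnn3 was lost without day 0 A, day 0 B or any array of day 7.

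**Figure D4:**
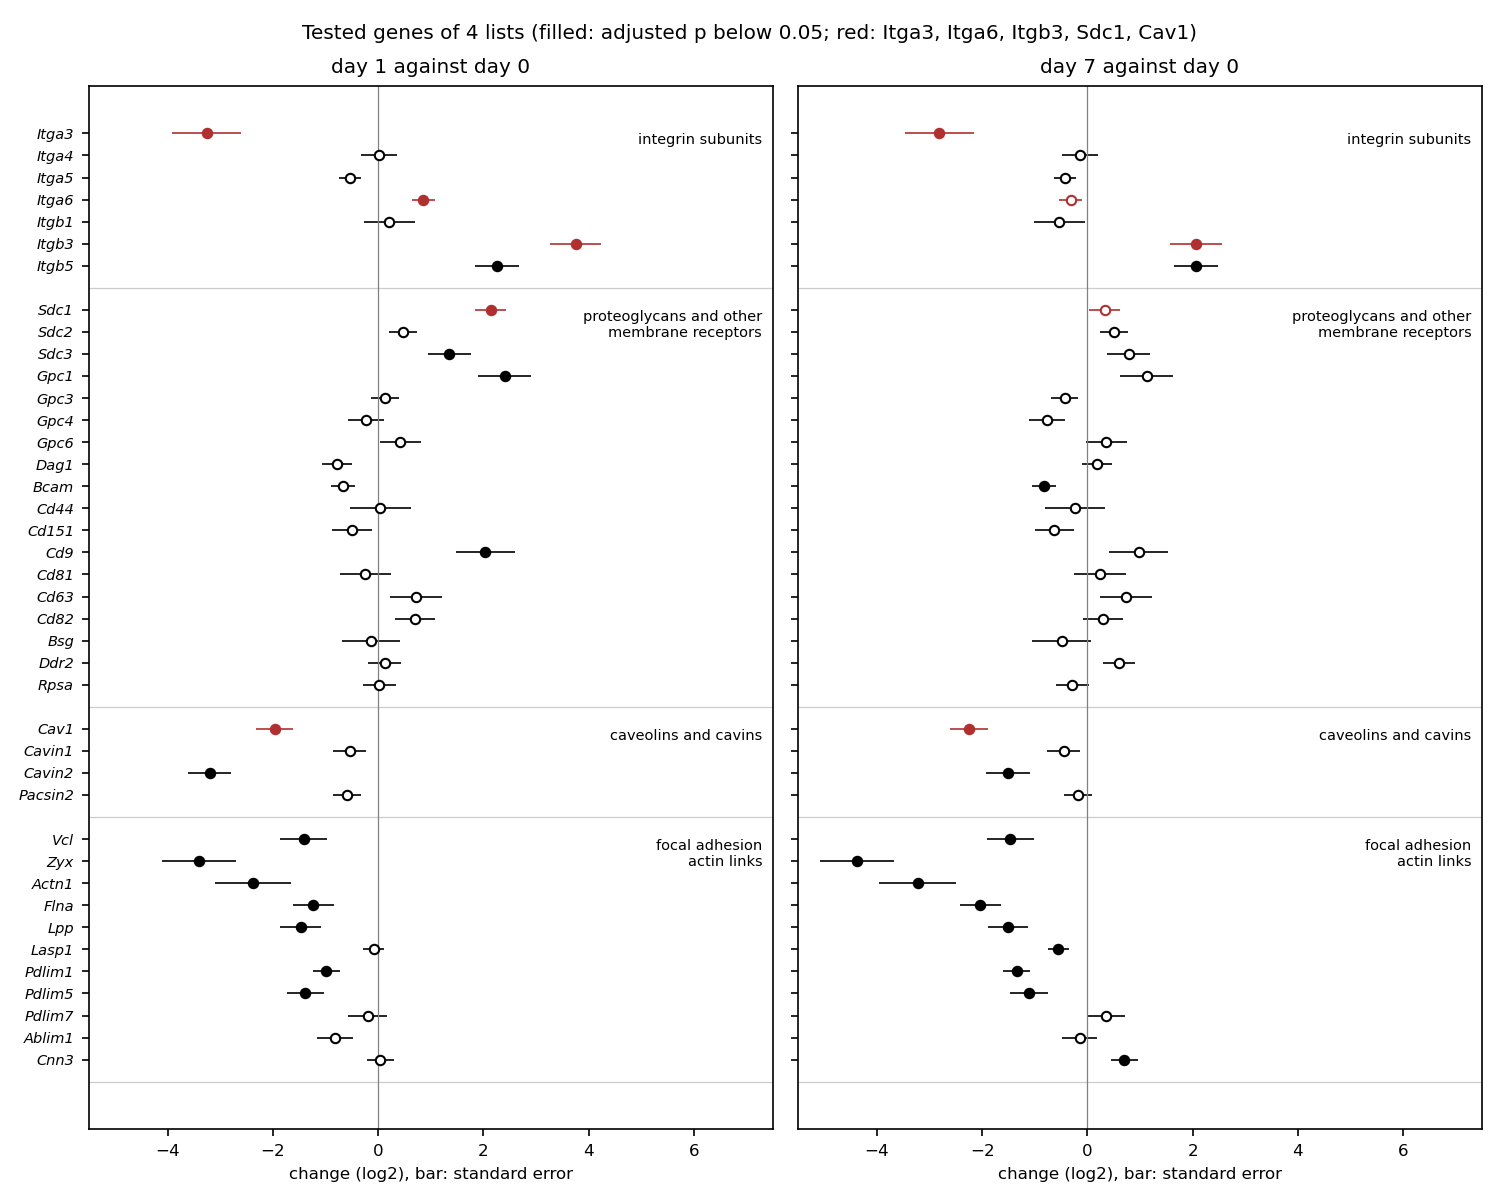
Change against day 0 at day 1 and day 7 on the log2 scale (x axis, bar: standard error) of the tested genes of 4 lists (y axis), filled where the adjusted p was below 0.05 and red for Itga3, Itga6, Itgb3, Sdc1 and Cav1. Itgb3 and Itgb5 lie to the right on both days, and Cav1, Cavin2, Zyx and Actn1 to the left, though Cavin2 at day 7 turns to 0.20 with all day 0 signs turned.

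Of 20 tested adaptors and kinases of integrin signalling, 3 were called at day 1 and 7 at day 7, shares near the 10.9% and 27.6% of all units. At day 1, 1 rose, the talin gene Tln2 (1.26), and 2 fell, Bcar1 (-1.49), a docking protein of focal adhesions, and Tgfb1i1 (-1.23), a paxillin relative. At day 7, 3 rose, Crkl (1.00), Rap1a (0.99) and Rap1b (0.91), adaptor and small GTPases, and 4 fell, Tgfb1i1 (-1.60), the kinase Src (-1.26), Bcar1 (-1.24) and Lims2 (-0.89). With any 1 array left out, Tln2 and Bcar1 at day 1 and Tgfb1i1 and Bcar1 at day 7 kept their calls. Tgfb1i1 at day 1 lost its call with each of the 6 left out, and the remaining 5 at day 7 lost theirs with 2 to 4 different arrays, among them day 0 B for each. With all day 0 signs turned, Tln2 passed at day 1 (0.92, adjusted p = 0.0477) and none fell, and at day 7 none rose and none fell, Crkl being at 0.06, Bcar1 at -0.08 and Src at -0.23. The medians were -0.19 and -0.17.

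Genes for the ligands in basement membrane gave no call at day 1 or day 7, but at day 1 this depended on the processing. Of 9 tested, limma called 0 at day 1 and 0 at day 7, with 1 and 0 at an unadjusted p below 0.05. The shares of all units called were 10.9% and 27.6%. The laminin chain gene Lamb1 was at 0.05 on day 1 and 0.71 on day 7, Lamc1 at 0.35 and -0.21, and Nid1, which encodes nidogen, at 0.60 and -0.21. After turning all day 0 signs, 1 fell on each day. At day 1, 6 of the list were higher with array weights, where 6322 units were called. With scaled arrays 2 were higher at day 1, where 3259 units were called, and with only the groups compared 1 was. Against the reference channel 1 was higher and 1 lower at day 1, and 1 was lower at day 7. The medians were 0.35 and -0.21.

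Some cell type markers, those of hepatoblasts and hepatocytes included, were called over the same days, beside 10.9% of all units at day 1 and 27.6% at day 7. With lists this small, such counts do not show that a cell type moved. In bulk RNA, fewer cells of a type and less RNA per cell cannot be told apart. Of 9 tested fibroblast markers 3 rose at day 1 (Pdgfrb, Col6a1 and Col5a1) and 3 at day 7 (Dcn, Pdgfrb and Prrx1), and none fell. The mean of the list on an array ran from -0.85 to 0.10 on day 0, 0.33 to 0.99 on day 1 and 0.33 to 0.77 on day 7. The median of these array means was 0.91 on day 1, 1.01 on day 2, 1.02 on day 3 and 0.62 on day 7. Between days 1 to 3 and days 5 to 7, where Sdc1, Itgb3 and Itga6 fell, 4 of the 9 fibroblast markers were called. The share of all units was 7.74%. Col5a1 (-0.85), Col5a2 (-1.001) and Col6a2 (-0.96) fell and Dcn rose (1.91). Col1a2 (-0.31), Col3a1 (-0.60), Col6a1 (-0.38), Pdgfrb (-0.34) and Prrx1 (-0.05) did not pass. Of the bile duct and smooth muscle markers Anxa4 (0.55) and Smtn (0.59) rose, while Bicc1 (-0.22) and Mylk (0.58) did not pass. Of 3 tested blood and macrophage markers 1 rose at day 1 and 1 at day 7, with list means of -0.38 to 0.14 on day 0 and 0.42 to 0.97 on day 1. Of 5 hepatoblast and hepatocyte markers 0 passed in limma at day 1 (0 at an unadjusted p below 0.05) and 3 rose at day 7, and of 2 bile duct markers limma called 0 at day 1 (1 at an unadjusted p below 0.05) and 1, higher, at day 7. The single endothelial marker passed on neither day, adjusted or unadjusted, and of 2 smooth muscle markers 1 fell at day 1, and 1 rose and 1 fell at day 7. List means on day 0 and day 1 were -0.35 to -0.04 and 0.73 to 0.91 for bile duct markers. They were -0.28 to -0.01 and 0.08 to 0.43 for hepatoblast and hepatocyte markers, and -0.61 to -0.16 and -1.01 to -0.90 for smooth muscle markers. The part of these cell types in the values of the 5 genes was not tested.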

How the data were processed

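Two-colour cDNA arrays compared amplified RNA of HBC-3 cells with RNA of undifferentiated cells, in 24 samples grouped by the day in the labels. The authors deposited log ratios, taken here as log2 values because the base is not stated. The dyes are known per the labels, while scanner, software and normalization are not given in the sources used. Depth has no counterpart here, and the number of arrays limits precision.

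Each array was centred on its median and the features of a gene were averaged. Features were named from the platform annotation (13319 of 24157 have 1 symbol, 589 several). limma 3.58.1 in R 4.3.3 fitted the 8 day means in 1 model without a block over 10639 units with values on at least 2 arrays of each day. Empty cells were left empty. The F-test treats them as present when it weighs the days. Tests are two-sided, with Benjamini-Hochberg adjustment over all units within a comparison at 0.05. The fit was also run on simulated data with independent normal noise on every array. That noise lacks the links between arrays of 1 letter and the unequal SD of the arrays. The run thus cannot show that the p-values hold for these data. Correlations are Pearson's r.

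The members and the gene lists were chosen with earlier results of these data known. Named were the 5 members, up to 4 genes per list at day 1 and at day 7 among those past the threshold, by size of change, and the 5 genes most like each member. Cnn3, Rap1a, Rap1b, Lims2, the genes named though not past the threshold and the markers were named after their values were seen. Alternatives were other centring, scaling, filters, feature summaries, spread estimates, array weights, a replicate block, signs of the day 0 arrays, the reference channel as control and left-out arrays. The arrays of different days with the same letter were not treated as pairs, since nothing in the labels ties them. Their deviations from the day means correlated above 0.1 in 52 of 84 pairs (from -0.54 to 0.93): in all 9 within days 1 to 3 and all 18 within days 4 to 7, but in 21 of 36 between those spans and 4 of 21 with day 0.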

Additional observations from a re-analysis of the deposited data

Results flagged for a closer look

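For 3 of the 5 genes, chosen with earlier results known, the effect at day 7 differed from that at day 1 by limma. This test of the difference between both days called 2.92% of all units. The difference was -1.17 on the log2 scale for Itga6, -1.69 for Itgb3 and -1.81 for Sdc1. All 3 day 7 arrays lay below all 3 day 1 arrays for each of these genes. Since the genes were listed because they passed this test, the separation adds no support, and its share over all units was not computed. With 1 array of either day left out, Itga6 ran from -1.38 to -1.04 and Sdc1 from -2.03 to -1.50, and both still passed. Itgb3 ran from -1.88 to -1.46 and did not pass in any of the 6 cases (adjusted p 0.0662 to 0.182). The same test gave 0.44 for Itga3 and -0.29 for Cav1, neither past the threshold (adjusted p 0.772 and 0.715).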

How the results depend on the processing

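The 5 genes had 786 alternative values over the comparisons with day 0 and between late and early days. Of these, 739 stayed on the same side of the threshold, 32 lost the call, 14 gained it and 1 reversed, with a changed sign and a call. The 739 include values whose sign turned while neither value passed. For example, turning all day 0 signs moved Itga6 at day 7 from -0.3148 to 0.2729 and Sdc1 from 0.3304 to -0.0392. The reversed value was that of Cav1 between late and early days, 0.9050 with the arrays scaled to a common spread (adjusted p = 0.00371, with up to 0.996 under the other alternatives), and Itga3 then passed too (1.1571, adjusted p = 0.015). With all day 0 signs turned, Itga3 no longer passed at day 1 (-1.4661) or day 7 (-1.0292). With the sign of day 0 C alone turned, Itga3 passed on both days (-2.9479 and -2.5110). Sdc1 at day 7 passed with array weights (0.8304) and with the late C arrays dropped (0.6403). With single arrays left out, Itga6 at day 1 ran from 0.7400 to 0.9497 and Itgb3 at day 7 from 1.4031 to 2.7270, each losing its call in the cases named above. The causes were not tested. With the letter as a replicate block, no call of the 5 genes changed on any day against day 0 or between late and early days (Itgb3 at day 1 was 3.5948 and Itga3 at day 1 -3.2540), though 1543 units in place of 823 were called between late and early days. Under the block the adaptors and kinases had 2 higher and 4 lower at day 1, in place of 1 and 2, and the membrane matrix receptors 1 higher at day 7, in place of 0. A block over all days does not model letter deviations that differ between the early and the late days.

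The units called moved more than those of the 5 genes. At day 1, 1161 became 6322 with array weights, 3297 with only the groups compared, 3259 with scaled arrays, 2271 without the late C arrays and 515 with the day 0 signs turned. At day 7, 2940 became 5182 with array weights, 1818 with only the groups compared and 1230 with the signs turned. Units with a value on all 24 arrays, of which Itga6 and Itgb3 are none, gave 592 calls at day 1, from fewer units tested. Itgb3 has 2 values on days 0, 5 and 6, which limits its precision.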
